A study of Mus musculus with 8 samples.

Results

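The Rab GTPases are the largest branch of the Ras-like small GTPases, and their transcripts were followed here in the enamel organ of mouse first molars as it passed from the secretory stage to the maturation stage. Members were all protein-coding genes of the count table whose name is Rab followed by a number and, where present, a letter. This gave 59 of 54532 genes, and genes for Rab effectors and regulators were left out. Of the 59, 52 passed edgeR's filter on low counts and were tested. The samples were first molars of C57BL/6 pups of wt genotype with no treatment, taken at postnatal day 5 (P5, 4 libraries) and at day 12 (P12, 4 libraries). The labels call the material epithelially derived cells. The soft tissue of the pulp was removed, molars of 5 pups were pooled for each library, and polyadenylated RNA was sequenced, so that age is the difference between the groups and each value is that of a pool. The p-values given below measure the spread between pools, and the labels do not tie the libraries to litters.

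Rab proteins switch between a GTP-bound form on a membrane and a GDP-bound form that is extracted into the cytosol. Exchange factors (GEFs) load them with GTP, GTPase-activating proteins (GAPs) end the active state, and effectors that bind the active form tether, move or sort vesicles. Each Rab marks particular compartments, from the endoplasmic reticulum (ER) and Golgi through secretory vesicles to endosomes and lysosomes. Secretory ameloblasts export large amounts of enamel matrix proteins, while maturation ameloblasts take up and degrade matrix, modulate their apical border and move ions.

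Promoter windows of members with large changes are shown to place the genes described below. They run from 250 bases before to 50 bases after the RefSeq start site on GRCm38.p6 and are written 5′ to 3′ on the strand of the gene. Rab25 (chr3:88548230-88548529, minus strand) and Rab3d (chr9:21918134-21918433, minus strand) were higher at P12. Rab27a (chr9:73044560-73044859, plus strand, the upstream of its 2 start sites in RefSeq) and Rab6a (chr7:100607336-100607635, plus strand) were lower. Capitals mark matches, on either strand, to the CRE (TGACGTCA), the GC box (GGGCGG) and the CCAAT box (CCAAT).
Rab25: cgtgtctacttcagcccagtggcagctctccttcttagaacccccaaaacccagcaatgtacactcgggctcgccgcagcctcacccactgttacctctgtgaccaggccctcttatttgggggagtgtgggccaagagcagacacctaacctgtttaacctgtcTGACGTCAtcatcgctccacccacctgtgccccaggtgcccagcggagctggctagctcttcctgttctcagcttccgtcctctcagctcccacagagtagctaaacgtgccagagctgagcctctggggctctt
Rab3d: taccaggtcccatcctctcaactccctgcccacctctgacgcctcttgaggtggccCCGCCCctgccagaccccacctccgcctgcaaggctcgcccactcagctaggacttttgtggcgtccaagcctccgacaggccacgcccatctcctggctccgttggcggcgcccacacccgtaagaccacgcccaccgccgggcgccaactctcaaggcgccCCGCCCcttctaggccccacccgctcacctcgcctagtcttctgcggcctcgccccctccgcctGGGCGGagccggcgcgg
Rab27a: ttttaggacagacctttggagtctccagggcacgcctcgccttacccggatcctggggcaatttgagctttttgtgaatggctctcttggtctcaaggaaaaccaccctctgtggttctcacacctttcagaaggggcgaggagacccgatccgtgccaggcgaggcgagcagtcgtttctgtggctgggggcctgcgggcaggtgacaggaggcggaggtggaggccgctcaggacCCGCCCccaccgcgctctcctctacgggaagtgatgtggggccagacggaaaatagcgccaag
Rab6a: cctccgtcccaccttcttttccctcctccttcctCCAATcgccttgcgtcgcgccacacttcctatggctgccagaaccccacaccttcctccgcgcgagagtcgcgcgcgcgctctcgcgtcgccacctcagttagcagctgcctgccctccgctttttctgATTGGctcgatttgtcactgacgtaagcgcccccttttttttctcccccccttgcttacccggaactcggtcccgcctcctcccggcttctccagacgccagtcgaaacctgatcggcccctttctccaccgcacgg
Each window is GC rich, with 58.3% G and C for Rab25, 71.0% for Rab3d, 61.3% for Rab27a and 62.7% for Rab6a. The Rab25 window held the CRE and none of the other motifs searched, which also included the E-box (CACGTG), the TATA box (TATAAA) and the AP-1 site (TGACTCA). A CRE was present in 1.79% of all 32851 promoter windows and in those of 2 of the 48 Rab genes matched to a promoter window, Rab25 and Rab5a. A GC box was present in 35.7% of all windows and in 36 of the 48 Rab genes, among them 11 of 14 that were higher and 11 of 13 that were lower. A CCAAT box was present in 37.4% of all windows and in 26 Rab genes, 7 of the 14 higher and 8 of the 13 lower. An E-box occurred in 7.15% of windows and 6 Rab genes, a TATA box in 13.6% and 4, and an AP-1 site in 5.20% and 3. The counts over Rab genes take all start sites of a gene together, and those over windows do not, so the shares are not on the same footing. A match describes the letters of the window and no more. No sequence is shown for Rab38 and Rab27b.

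Total counts per library were between 16574548 and 22013456, and Rab genes took 0.252% to 0.260% of them at P5 and 0.318% to 0.329% at P12. Such a share also depends on the reads that other genes take. Mean normalized counts of Amelx, Ambn and Enam were 2705330, 1978130 and 589755 at P5. At P12 they were 50551.5, 333611 and 598. The part of these genes in the change of the Rab share was not tested. All 4 markers of secretory ameloblasts were lower and all 5 of maturation ameloblasts higher at P12. The secretory markers summed to 4966560 to 5580350 at P5 and 237040 to 621683 at P12. The maturation markers summed to 12880 to 44228 and 356963 to 482565. Both sums were highest at P12 in replicate 4. Klk4, Amtn, Odam and Slc24a4 were lowest at P5 in replicate 5, with 703 for Klk4 against 2586 to 3589 in the others. The part of these differences in the Rab values was not tested. Markers of other tissues were also present and moved with age. The summed normalized count of 4 oral mucosa keratin and cornification genes was between 475 and 870 at P5 and at least 10708 in 3 of the P12 libraries, against 1762 in P12 replicate 4. Osteoclast markers summed to 1037 to 1685 at P5 and 3166 to 7911 at P12, and 4 of the 5 were tested and higher. Of 6 genes of mesenchyme, bone and odontoblasts, 2 were higher and 1 lower, with sums of 1025860 to 1222470 at P5 and 897836 to 1164650 at P12. In bulk tissue, fewer cells of a type and less RNA per cell cannot be told apart. For the markers of endothelium, 3 of 3 were higher (sums of 1922 to 2306 and 3719 to 4031), for Schwann cells 3 of 4 (500 to 732 and 971 to 1392), and of 3 red blood cell genes 1 was lower (16446 to 31335 and 15501 to 18451). The part of these other cells in the Rab values was not tested beyond the values given beside them.

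Rab genes were evenly divided between the directions. At an adjusted p under 0.05 (edgeR's quasi-likelihood test, with p-values adjusted by the Benjamini-Hochberg method over 16440 genes), 16 of the 52 were higher at P12, 16 were lower and 20 were not called. Rab20, Rab25 and Rab3d rose at least 2-fold, while 10 members fell at least 2-fold, among them Rab3c, Rab38 and Rab27a. Rab20 met the filter on low counts in every library at P12 only, and Rab3c and Rab39b in every library at P5 only. That these genes were tested thus rests on the age where each is higher. Among all genes tested, 28.8% were called higher and 28.4% lower, so that the share of Rab genes called in each direction, 30.8%, was close to the background. At least 2-fold, 3 of 52 Rab genes were higher, where 11.3% of all genes were, and 10 were lower, where 10.2% of all genes were. The median log2 fold change of the Rab genes was 0.07 and that of all genes 0.01. Values did not overlap between the ages for 15 Rab genes that were higher and 15 that were lower, against 26.0% and 26.6% of all genes. Scaling by total count, which moved the median of all genes from 0.01 to 0.38 on the log2 scale, gave 32 Rab genes higher and 9 lower in place of 16 and 16. Rab2b, Rab4a, Rab4b, Rab39b and Rab40b kept their direction under it but were no longer called. Directions below are relative to the median of all genes under TMM scaling (edgeR's trimmed mean of M-values). Leaving out P5 replicate 5 and P12 replicate 4 together also gave 16 higher and 16 lower, but with an exchange of members. Rab9, Rab14 and Rab40b lost their calls (edgeR adjusted p = 0.223, 0.112 and 0.138), Rab1b and Rab15 were called higher (0.0437 and 0.0367) and Rab1a was called lower (0.0002).

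**Figure D1:**
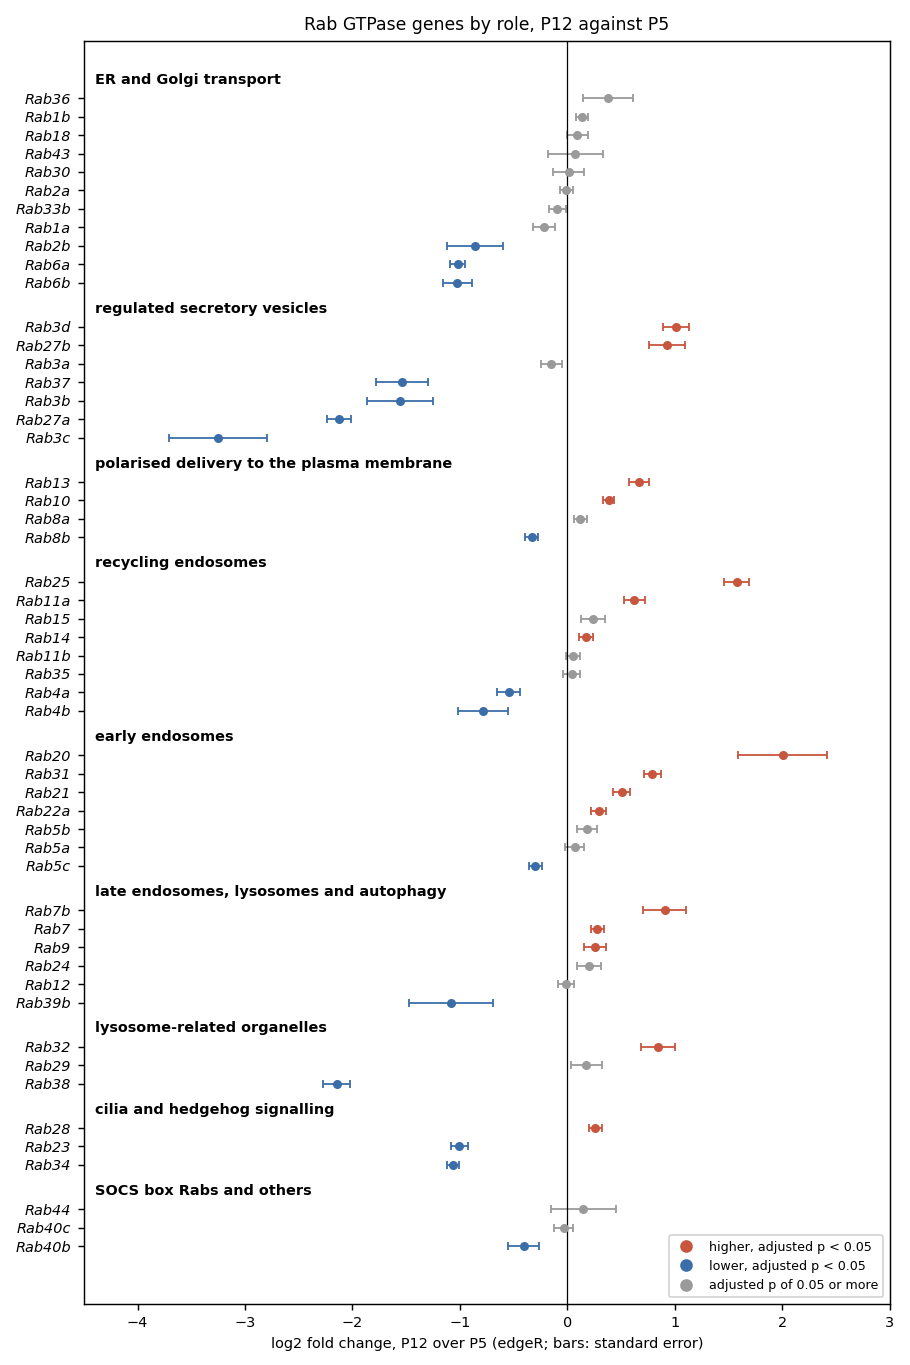
Log2 fold change (P12 over P5) with its standard error from edgeR for the 52 Rab genes tested, arranged by role. Of 7 early endosome Rabs 4 lie to the right as higher at P12 and 1 to the left, whereas 3 of 11 ER and Golgi Rabs lie to the left and the rest were not called. Among all genes tested, 28.8% were higher and 28.4% lower. Rab5c and Rab8b turn to the other side of 0 when libraries are scaled by total count.

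Normalized counts below are read counts scaled to a common effective library size. Libraries are listed in the order P5 replicates 1, 3, 4 and 5, then P12 replicates 1, 2, 3 and 4.

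Among the Rabs of ER and Golgi transport, both Rab6 genes and Rab2b fell, and the core members of the route between ER and Golgi were not called. Of 11 tested, 3 were lower, 0 were higher by edgeR's quasi-likelihood test and 8 were not called. Among all genes tested, 28.4% were lower and 28.8% higher. At an unadjusted p under 0.05, 1 of the 11 was higher, and DESeq2 and limma-voom each called 1 higher, Rab1b. Rab6a (chr7:100607410-100641268), which acts in transport from and within the Golgi and in the delivery of secretory carriers, had normalized counts of 4281, 4382, 4579 and 4853 at P5 and 2011, 2255, 2220 and 2428 at P12. Every P5 library lay above every P12 library. The log2 fold change was -1.02 (SE 0.07, edgeR adjusted p = 4.93e-07). Its paralog Rab6b, best known from neurons, had 396, 536, 468 and 578 at P5 and 256, 199, 251 and 269 at P12, again without overlap. The log2 fold change of -1.02 (SE 0.13, edgeR adjusted p = 5.08e-05) was that of Rab6a to 2 decimals. Of the exonic bases of Rab6a, 19.0% are shared with Mrpl48 on the opposite strand, which had between 469 and 796 counts, and the use of strand in the counting is not stated. Rab2b, a Golgi Rab, had a log2 fold change of -0.86 (SE 0.26, edgeR adjusted p = 0.0151). This call was lost without P5 replicate 1 (log2 fold change -0.67, edgeR adjusted p = 0.053), and 64.0% of its exonic bases are shared with other genes.

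Rab1a and Rab1b carry vesicles from the ER to the Golgi. Rab1a had 5088, 4638, 4499 and 3753 normalized counts at P5 and 3518, 3789, 3770 and 4378 at P12, and the ages overlapped. Its log2 fold change was -0.22 (SE 0.10, edgeR adjusted p = 0.0789). P5 replicate 5 was the lowest at its age and P12 replicate 4 the highest at its own, and without either library Rab1a was called lower (-0.30, edgeR adjusted p = 0.0127 without the former and -0.29, edgeR adjusted p = 0.0149 without the latter). Rab1b had 2509, 2307, 2358 and 2382 at P5 and 2563, 2696, 2660 and 2565 at P12. These did not overlap, yet the log2 fold change of 0.13 (SE 0.05) missed the threshold (edgeR adjusted p = 0.0563). Without P12 replicate 4 it passed (log2 fold change 0.14, edgeR adjusted p = 0.0442).

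Rab2a, which serves the early secretory pathway, had 3952, 3749, 3729 and 3556 normalized counts at P5 and 3619, 3844, 3726 and 3687 at P12. The libraries of both ages were interspersed, and the log2 fold change was -0.01 (SE 0.06, edgeR adjusted p = 0.89). Rab18, which acts at the ER and on lipid droplets, had 2422, 2225, 2139 and 2250 at P5 and 2084, 2260, 2348 and 2939 at P12. P12 replicate 4 stood highest, and the log2 fold change of 0.09 (SE 0.10, edgeR adjusted p = 0.447) turned to -0.02 without it. Rab36, Rab43, Rab30 and Rab33b were not called, with log2 fold changes between -0.09 and 0.38. Rab43 shares 75.4% of its exonic bases with the gene model Gm45140, so its counts are uncertain.

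Most Rabs of regulated secretory vesicles changed. Of 7 tested, 4 were lower, 2 higher and only Rab3a was not called, where 28.4% of all genes tested were lower and 28.8% higher. The median absolute log2 fold change of the 7 was 1.54, where that of all genes tested was 0.41. Rab27a (chr9:73044854-73097629), which docks secretory granules and melanosomes, fell, while Rab27b rose. Rab27a had normalized counts of 629, 675, 709 and 830 at P5 and 152, 150, 194 and 157 at P12, with no overlap. The mean was 711 ± 86.0 (SD, n = 4) at P5 and 163 ± 20.6 at P12, which is 4.37-fold lower by the fit (log2 fold change -2.13, SE 0.11, edgeR adjusted p = 5.61e-08). Rab27b, which acts on granules in secretory epithelia and platelets, had 212, 199, 179 and 174 at P5 and 416, 456, 324 and 253 at P12. All P12 libraries were higher and P12 replicate 4 was the lowest of them (log2 fold change 0.93, SE 0.17, edgeR adjusted p = 0.000693).

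The Rab3 genes also differed in direction. Rab3 proteins sit on synaptic and secretory vesicles and control their exocytosis. Rab3d (chr9:21907491-21918192), the form typical of exocrine and other non-neuronal secretory cells, had 251, 253, 262 and 305 normalized counts at P5 and 640, 572, 501 and 444 at P12. It rose without overlap (log2 fold change 1.01, SE 0.12, edgeR adjusted p = 2.75e-05), and its lowest P12 value was again in replicate 4. Rab3c (chr13:110054187-110280996) had 97.7, 202, 88.3 and 158 at P5 and 4.4, 10.1, 14.8 and 30.1 at P12. Raw counts behind the P12 values were 6, 12, 16 and 30. This was the largest fall among the 52 Rab genes tested, 9.52-fold by the fit (log2 fold change -3.25, SE 0.46, edgeR adjusted p = 0.000104).

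Rab3b had 33.4, 69.3, 64.6 and 52.9 normalized counts at P5 and 16.9, 13.5, 16.7 and 28.1 at P12. The ages did not overlap, and the fall was 1.56 on the log2 scale (SE 0.31, edgeR adjusted p = 0.00117). Rab3a, the main synaptic form, had 307 to 394 at P5 and 297 to 330 at P12 (log2 fold change -0.15, SE 0.10, edgeR adjusted p = 0.231). Rab37, a Rab of secretory granules described in mast cells, had 83.6, 71.5, 85.7 and 55.0 at P5 and 20.5, 23.6, 34.3 and 23.1 at P12, without overlap (log2 fold change -1.54, SE 0.24, edgeR adjusted p = 0.000209). Of 5 nerve and endocrine cell markers, Syp, Tubb3 and Chga also fell, and the list summed to 2323 to 3557 at P5 and 1145 to 1217 at P12, with none of the 5 at or under 3 counts throughout. Of 7 genes of mast cells and platelets, 2 were higher and 1 lower (sums of 938 to 1167 and 921 to 1025). The part of these cells in the values of Rab3c, Rab3b and Rab37 was not tested.

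**Figure D2:**
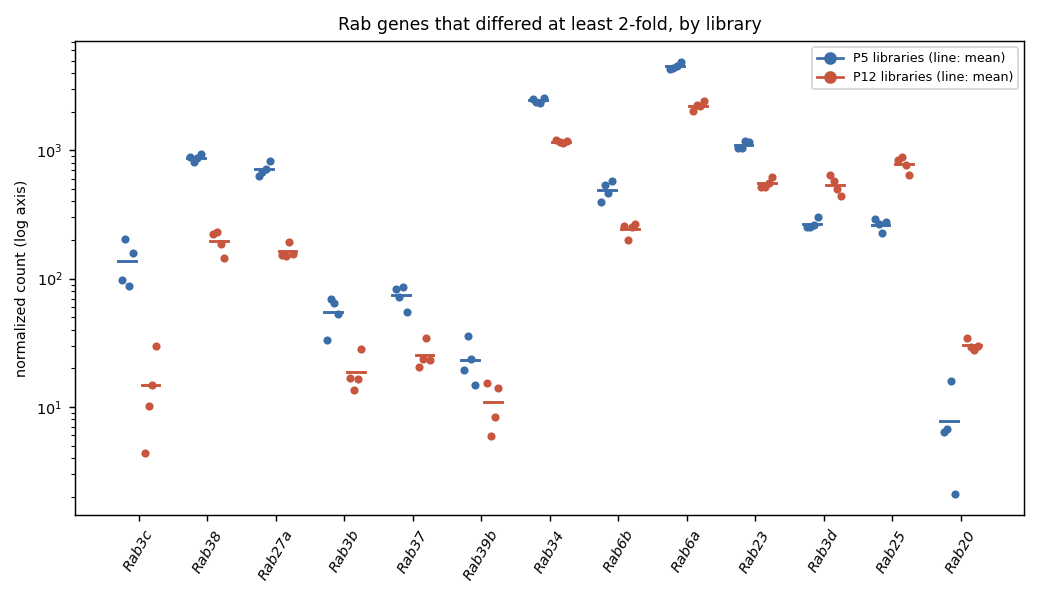
Normalized counts (log axis) of the 13 Rab genes that differed at least 2-fold with an adjusted p under 0.05, each point a library and each line the mean of 4 libraries. P5 and P12 libraries are separated for all of them but Rab39b, and Rab20, Rab3c, Rab3b, Rab37 and Rab39b lie at low counts.

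Of the 4 Rabs of polarised delivery to the plasma membrane, Rab10 and Rab13 rose and Rab8b fell. Among all genes tested, 28.8% were called higher and 28.4% lower. Rab13, found at tight junctions of epithelia, had 306, 326, 291 and 271 normalized counts at P5 and 464, 476, 530 and 421 at P12 (log2 fold change 0.66, SE 0.09, edgeR adjusted p = 0.000102). Rab10, which carries membrane proteins to the cell surface, had 1958, 1927, 1845 and 1950 at P5 and 2420, 2594, 2536 and 2478 at P12 (log2 fold change 0.38, SE 0.05, edgeR adjusted p = 9.97e-05). Neither gene overlapped between the ages. Rab8a was not called (log2 fold change 0.12), and Rab8b, its close relative, fell by 0.33 on the log2 scale (edgeR adjusted p = 0.000959), a direction that turned to 0.04 when libraries were scaled by total count.

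Of 8 recycling endosome Rabs, 3 were higher and 2 lower, with Rab25, Rab11a and Rab14 higher and both Rab4 genes lower. As shares of the role, these were close to those of all genes tested, 28.8% and 28.4%. Rab25 (chr3:88542029-88548300), an epithelial member of the Rab11 group that returns proteins to the apical surface, had 291, 265, 225 and 276 normalized counts at P5 and 845, 893, 766 and 647 at P12. The lowest P12 library was more than 2-fold above the highest at P5. The mean rose from 264 ± 28.0 to 788 ± 107 (SD, n = 4 each), 2.98-fold by the fit (log2 fold change 1.57, SE 0.11, edgeR adjusted p = 5.45e-07). Rab11a, the general Rab of recycling endosomes, had 1044, 1090, 1078 and 930 at P5 and 1323, 1549, 1616 and 1901 at P12 (log2 fold change 0.62, SE 0.10, edgeR adjusted p = 0.000309). In Rab11a the highest P12 value was in replicate 4, where that of Rab25 was lowest.

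Rab14, which links Golgi and endosomes, was called higher by a small margin (log2 fold change 0.17, SE 0.07, edgeR adjusted p = 0.0465). Its ages overlapped, and the call was lost when any library but P12 replicate 1 was left out (0.11 to 0.18, edgeR adjusted p = 0.0667 to 0.119). Rab11b, Rab15 and Rab35 were not called, although Rab15 passed without P12 replicate 4 (log2 fold change 0.30, edgeR adjusted p = 0.0305). Rab4a and Rab4b, which direct fast recycling from early endosomes, had log2 fold changes of -0.55 (SE 0.10, edgeR adjusted p = 0.000946) and -0.79 (SE 0.23, edgeR adjusted p = 0.0123). Rab4a lay 225 to 242 normalized counts at P5 and 140 to 175 at P12. Rab4b lay 47.6 to 83.6 at P5 and 31.2 to 45.2 at P12, and it shares 65.0% of its exonic bases with the readthrough model Gm21983.

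Of 7 early endosome Rabs, 4 were called higher and 1 lower, where 28.8% and 28.4% of all genes tested were. Their summed level per kilobase overlapped between the ages, at 3452 to 3672 normalized counts in the P5 libraries and 3395 to 4015 in the P12 libraries. Rab20, which acts on early endosomes and phagosomes, had 6.43, 6.71, 15.8 and 2.12 normalized counts at P5, from 5, 6, 12 and 2 reads, and 34.5, 29.5, 27.8 and 30.1 at P12, from 47, 35, 30 and 30 reads. The ages did not overlap, and the 4.01-fold rise of the fit had the widest error among the members that rose (SE 0.42 on the log2 scale, edgeR adjusted p = 0.00165). Of its exonic bases, 25.6% are shared with E230013L22Rik on the opposite strand. Rab31, which moves cargo between the trans-Golgi and endosomes, had 1147, 1011, 1049 and 877 at P5 and 1795, 1751, 1691 and 1821 at P12 (log2 fold change 0.79, SE 0.08, edgeR adjusted p = 7.09e-06). Rab21, known for integrin traffic, rose by 0.51 (SE 0.08, edgeR adjusted p = 0.000187), and Rab22a, a close relative of Rab31, by 0.29 (SE 0.07, edgeR adjusted p = 0.00335), both on the log2 scale and without overlap.

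Rab5 proteins govern fusion of early endosomes, and only Rab5c of the 3 genes was called. Rab5c had 4192, 3905, 4086 and 4052 normalized counts at P5 and 3089, 3287, 3308 and 3512 at P12, without overlap. It was lower by a log2 fold change of -0.30 (SE 0.06, edgeR adjusted p = 0.0014), which turned to 0.07 under total count scaling. Rab5a (0.07) and Rab5b (0.18) were not called, and P12 replicate 4 held the highest value of both. Without P12 replicate 1, Rab5b was called higher (log2 fold change 0.24, edgeR adjusted p = 0.0464).

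Of 6 tested Rabs of late endosomes, lysosomes and autophagy, Rab7, Rab7b and Rab9 were higher and Rab39b lower. Among all genes tested, 28.8% were higher and 28.4% lower. Rab7, which drives maturation of late endosomes and their fusion with lysosomes, had 3364, 3004, 3103 and 2923 normalized counts at P5 and 3631, 3759, 3738 and 3897 at P12. Each P12 library exceeded each P5 library, by a modest margin (log2 fold change 0.28, SE 0.06, edgeR adjusted p = 0.00274). Rab7b, which acts between late endosomes and the trans-Golgi, had 192, 153, 214 and 220 at P5 and 405, 463, 359 and 227 at P12 (log2 fold change 0.91, SE 0.20, edgeR adjusted p = 0.00232). P12 replicate 4 stood just above the P5 values. Rab9, which returns receptors from late endosomes to the Golgi, overlapped between the ages (log2 fold change 0.25, SE 0.10, edgeR adjusted p = 0.0494), and its call was lost when any library but P5 replicate 1 was left out (0.19 to 0.28, edgeR adjusted p = 0.059 to 0.136).

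Rab39b, linked to autophagy and best known from neurons, had 19.3, 35.8, 23.7 and 14.8 normalized counts at P5 and 15.4, 5.91, 8.34 and 14.1 at P12. The ages overlapped, and the fall of 1.09 on the log2 scale (SE 0.39, edgeR adjusted p = 0.0332) was lost without P5 replicate 3 or 4 or P12 replicate 2 or 3 (log2 fold change -1.08 to -0.80, edgeR adjusted p = 0.0644 to 0.126). Rab24 and Rab12 were not called. Rab24 shares 62.4% of its exonic bases with Prelid1 on the opposite strand, which had between 1638 and 4117 counts.

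The Rabs of lysosome-related organelles changed in opposite directions. Rab32 and Rab38 deliver enzymes to melanosomes and other lysosome-related organelles, and per kilobase of gene length Rab38 had 555 normalized counts at P5 and Rab32 had 29.4. Rab38 (chr7:88430273-88491572) had 882, 817, 873 and 929 normalized counts at P5 and 223, 232, 186 and 145 at P12. The mean fell from 875 ± 46.0 to 196 ± 39.8 (SD, n = 4 each), 4.43-fold by the fit (log2 fold change -2.15, SE 0.13, edgeR adjusted p = 1.16e-07). Rab32 had 63.0, 67.1, 63.3 and 81.5 at P5 and 125, 143, 122 and 103 at P12, a rise without overlap (log2 fold change 0.84, SE 0.16, edgeR adjusted p = 0.000955). Rab29 was not called.

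Of the 5 melanocyte markers, Dct and Pmel were tested and fell, and the list summed to 287 to 344 at P5 and 85.0 to 140 at P12. Dct had a mean of 239 normalized counts at P5 and 69.4 at P12. Tyr and Mlana had at most 2 counts in any library and Tyrp1 at most 9. The part of melanocytes in the values of Rab38 and Rab27a was not tested. Most macrophage and osteoclast markers moved in the direction of Rab20, Rab32 and Rab7b. The osteoclast marker Calcr, which was not tested, went the other way, with means of 11.1 at P5 and 4.48 at P12. Of 5 macrophage markers 4 were higher, with sums of 1565 to 2140 at P5 and 2218 to 3015 at P12, and Adgre1 was not called. Both of those lists were lowest at P12 in replicate 4, where Rab32 and Rab7b were also lowest, whereas Rab20 was lowest in replicate 3. Oral mucosa markers, Rab25, Rab27b and Rab3d were lowest in replicate 4 too. In all, 7 of the 16 higher Rab genes (43.8%) had their lowest P12 value in replicate 4, as did 44.3% of the 4735 genes higher at P12, and the part of these tissues was not tested.

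All 3 Rabs of cilia and hedgehog signalling were called, where 57.2% of all genes tested were. Rab23, a negative regulator of hedgehog signalling, had 1034, 1051, 1181 and 1165 normalized counts at P5 and 522, 515, 552 and 619 at P12 (log2 fold change -1.01, SE 0.08, edgeR adjusted p = 1.13e-06). Rab34, needed for an early step in cilium formation, had 2517, 2375, 2320 and 2571 at P5 and 1200, 1160, 1136 and 1178 at P12 (log2 fold change -1.07, SE 0.06, edgeR adjusted p = 5.72e-08). In both genes the P5 and P12 libraries were widely separated. Rab28, known from photoreceptor cilia, had 561 to 593 at P5 and 647 to 734 at P12 (log2 fold change 0.26, SE 0.06, edgeR adjusted p = 0.00458). Of the Rab40 group, whose SOCS box recruits a ubiquitin ligase, Rab40b was lower (-0.40, SE 0.14, edgeR adjusted p = 0.0317), a call lost without P5 replicates 1, 3 or 5 or P12 replicates 2, 3 or 4 (-0.42 to -0.34, edgeR adjusted p = 0.0538 to 0.0824), and Rab40c was not called. Rab44, a large Rab with further domains, was not called either.

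The 7 members that did not pass the filter were Rab9b, Rab17, Rab19, Rab26, Rab33a, Rab39 and Rab42, with at most 29 counts in any library. Rab9b had 4, 17, 7 and 29 counts at P5 and 0, 1, 0 and 2 at P12, so that all P12 values were at or under a floor of 3 counts. Rab33a, a Golgi Rab known from neurons and lymphocytes, had 9, 12, 5 and 9 counts at P5 and 5, 4, 6 and 3 at P12. Normalized values of both genes did not overlap between the ages (exact permutation test, two-sided, p = 0.0286 for each, the smallest that 4 libraries against 4 allow), and these p-values are not adjusted. Any gene without overlap gets this p, so it adds nothing to the lack of overlap. Of all genes tested, 26.6% were lower without overlap.

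Ratios of close paralogs do not depend on the scaling between libraries. Of 21 pairs listed, 17 had both genes tested, and the log2 ratio of their normalized counts (pseudocount 1) did not overlap between the ages in 12. For each of the 12 the exact permutation test, two-sided, gave p = 0.0286, the smallest possible, and 0.0405 after Benjamini-Hochberg adjustment over the 17 pairs. Rab3d, Rab5c and Rab11a each occur in more than 1 pair. The share of other gene pairs without overlap is not given here. Of single genes tested, 26.0% were higher and 26.6% lower without overlap. The largest changes were those of the Rab27 pair and of Rab32 and Rab38. The log2 ratio of Rab27a to Rab27b was 1.56, 1.76, 1.98 and 2.25 in the P5 libraries and -1.45, -1.59, -0.74 and -0.69 in the P12 libraries. Its mean moved by -3.01. These ratios are of counts and carry the difference in length of the genes. Per kilobase, Rab27a had 183 normalized counts at P5 and 42.0 at P12, and Rab27b had 17.9 and 33.9. The log2 ratio of Rab32 to Rab38 moved by 3.01 in the other direction, from -3.66 ± 0.14 to -0.65 ± 0.15 (SD, n = 4 each).

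Ratios within the Rab3 group moved towards Rab3d, by -2.50 for Rab3b to Rab3d and by -1.14 for Rab3a to Rab3d. The ratio of Rab25 to Rab11a rose by 0.95 and that of Rab11a to Rab11b by 0.56, both on the log2 scale. The ratios of Rab5a and Rab5b to Rab5c rose by 0.36 and 0.47, that of Rab8a to Rab8b by 0.45 and that of Rab2a to Rab2b by 0.85. Those of Rab22a to Rab31 and Rab10 to Rab13 fell by 0.51 and by 0.27. For Rab6a and Rab6b, which fell alike, the mean log2 ratio was 3.20 ± 0.19 at P5 and 3.19 ± 0.22 at P12, a difference with a two-sided p of 0.971 in the exact permutation test. The pairs Rab1a and Rab1b, Rab4a and Rab4b, Rab7 and Rab7b, and Rab40b and Rab40c also overlapped between the ages.

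**Figure D3:**
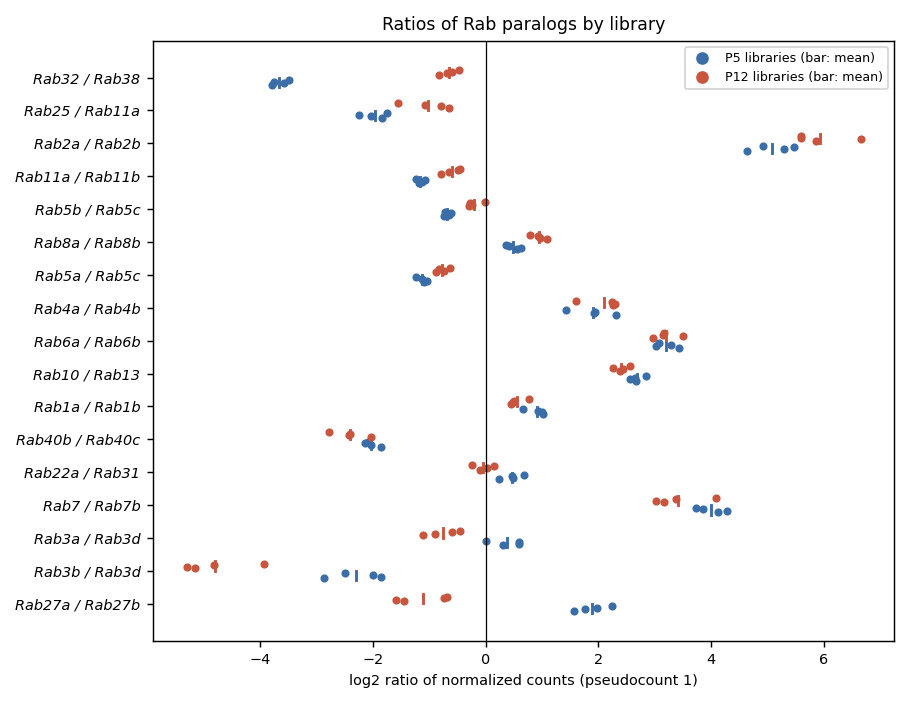
Log2 ratio of the normalized counts (pseudocount 1) of 17 pairs of Rab paralogs, each point a library and each bar the mean of 4 libraries. The pair Rab27a and Rab27b has all P5 libraries at 1.56 or above and all P12 libraries at -0.69 or below, and the pair Rab6a and Rab6b stays at 3.20 and 3.19.

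Levels between genes were compared as normalized counts per kilobase of the gene length in the table. A small number of Rabs held much of the summed level at both ages. At P5 the highest were Rab5c (1850 ± 54.1 per kilobase), Rab2a (1756 ± 75.9), Rab1b (1302 ± 46.8), Rab6a (1214 ± 67.6), Rab7 (1187 ± 73.5) and Rab1a (1183 ± 146), which together made up 48.3%. Libraries of Rab5c and Rab2a overlapped, and so did those of Rab1b, Rab6a, Rab7 and Rab1a. At P12 the order was Rab2a (1744 ± 44.3), Rab5c (1504 ± 78.8), Rab7 (1439 ± 41.8), Rab1b (1428 ± 36.7), Rab18 (1067 ± 164) and Rab1a (1017 ± 96.0), together 48.2%. Here Rab2a lay above Rab5c in all libraries, whereas Rab7 and Rab1b overlapped. Rab6a moved from rank 4 to rank 9 of the 59 genes, Rab38 from rank 10 to 30 and Rab25 from rank 26 to 12.

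**Figure D4:**
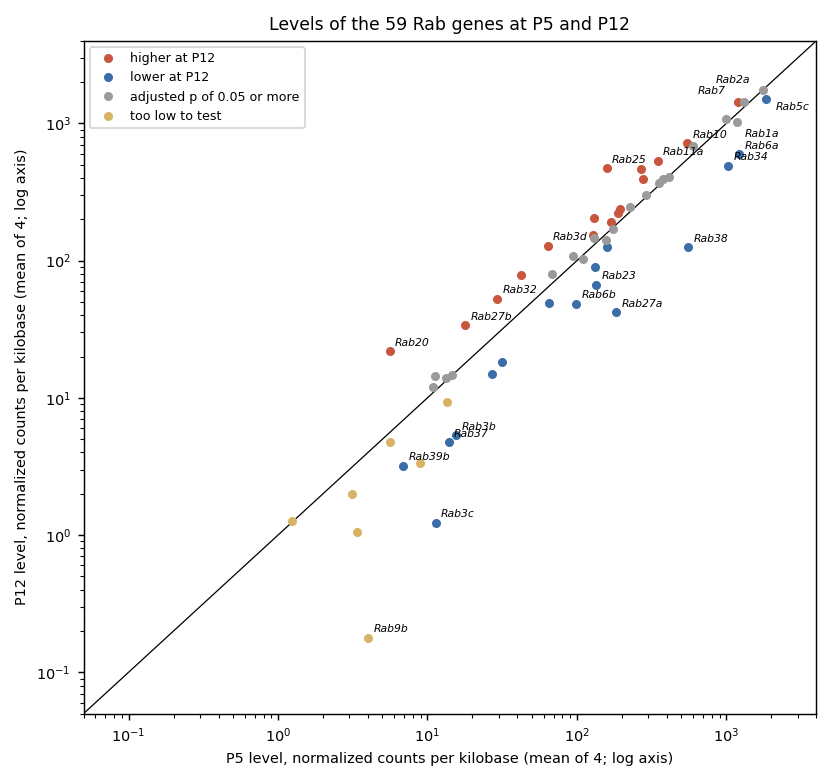
Mean level of the 59 Rab genes at P5 (horizontal) and P12 (vertical) in normalized counts per kilobase, both axes logarithmic, with the line of equal level and points colored by call. Rab2a and Rab5c are at the upper end at both ages, Rab38 and Rab27a lie far below the line and Rab25 and Rab20 above it, while Rab5c crosses to the other side under total count scaling.

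The summed level of all Rab genes per kilobase was 17597 ± 373 at P5 and 17006 ± 621 at P12 (SD, n = 4 each), a ratio of 0.966, and the libraries overlapped. Under total count scaling the ratio was 1.25. Within this sum, shares by role were described without a test. ER and Golgi Rabs took 38.3% at P5 and 35.7% at P12, and early endosome Rabs 20.2% and 21.6%. The fall was not shared by all ER and Golgi members. Rab6a went from 6.90% to 3.51% and Rab1a from 6.72% to 5.97%. The mean shares of Rab2a (9.98% and 10.3%), Rab1b (7.40% and 8.41%) and Rab18 (5.69% and 6.26%) rose. The level of Rab2a per kilobase did not rise with its share (1756 and 1744). That of Rab18 overlapped between the ages (948 to 1073 and 924 to 1302), with the highest value in P12 replicate 4. The share of recycling endosome Rabs was 8.96% at P5 and 12.2% at P12, that of late endosome, lysosome and autophagy Rabs 11.0% and 13.3%, and that of polarised delivery 6.04% and 7.60%. The cilia and hedgehog Rabs took 7.32% and 4.18%, and lysosome-related organelle Rabs 4.06% and 1.91%. Single genes held most of both at P5, Rab34 with 5.83% and Rab38 with 3.16%. The libraries of both ages did not overlap in any of these 7 roles. They overlapped for regulated secretory vesicles (2.65% and 2.12%) and for the SOCS box Rabs and others (1.5% and 1.4%). For comparison, 26.0% of single genes tested were higher and 26.6% lower without overlap. The shares add up to 100% in each library, so a fall in any role raises the others and the roles are not separate results.

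**Figure D5:**
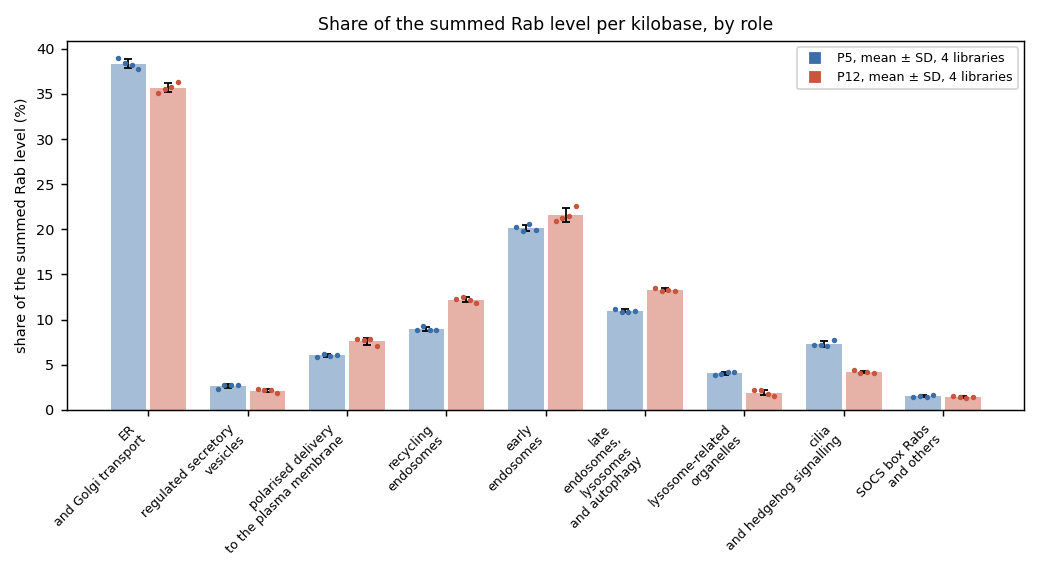
Share (%) of the summed Rab level per kilobase held by each role, bars giving the mean and SD of 4 libraries and points the libraries. Recycling endosome Rabs take 12.2% at P12 against 8.96% at P5, and ER and Golgi Rabs 35.7% against 38.3%. Of the latter, Rab6a alone holds 3.51% at P12 against 6.90% at P5.

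Regulators and effectors of Rabs were divided much like the Rabs. Of 129 listed genes, 128 were in the table and 126 were tested, of which 43 were higher, 37 lower and 46 not called. The shares called, 34.1% higher and 29.4% lower, were close to those of all protein-coding genes tested, 31.2% and 28.7%. Of 18 effectors of early and recycling endosomes, 9 were higher and 6 lower. Of 12 effectors of late endosomes and lysosomes, 5 were higher and 1 lower. Of 22 effectors of Golgi and secretory vesicles, 6 were higher and 8 lower, of 31 GEFs 11 and 6, of 35 GAPs 10 and 13, and of 8 genes of prenylation, escort and GDI, which load Rabs onto membranes or extract them, 2 and 3. Under total count scaling the whole list had 86 higher and 20 lower.

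The largest rise on the list was that of Rin1, a GEF for Rab5. It had 79.7, 99.5, 98.9 and 82.6 normalized counts at P5 and 841, 921, 817 and 488 at P12 (log2 fold change 3.09, SE 0.19, edgeR adjusted p = 1.95e-07). Myo5b, the motor that Rab11 proteins recruit, had 87.4, 91.7, 117 and 102 at P5 and 377, 376, 436 and 463 at P12 (log2 fold change 2.05, SE 0.12, edgeR adjusted p = 1.25e-07). Ehd3, a membrane remodelling protein of recycling endosomes (1.83), Micall2, an effector of Rab13 at junctions (1.33), and Tbc1d30, a GAP (2.42), completed the 5 largest rises on the log2 scale. In Tbc1d30 the P12 values spread from 564 to 1964, the highest in replicate 4.

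The largest fall was that of Tbc1d12, a GAP-domain protein that binds Rab11, with 2179, 2182, 2361 and 2251 normalized counts at P5 and 359, 406, 424 and 439 at P12 (log2 fold change -2.46, SE 0.07, edgeR adjusted p = 1.02e-09). Rab11fip3, a Rab11 effector, had 1930, 1969, 2124 and 2263 at P5 and 913, 841, 876 and 901 at P12 (log2 fold change -1.23, SE 0.07, edgeR adjusted p = 6.10e-08). Tbc1d16, a GAP (-1.62), Inpp5b, an inositol phosphatase that binds Rabs (-1.05), and Dennd6b, a DENN domain protein (-0.94), were the others on the log2 scale. All 10 named genes had no overlap between the ages. They were picked for the size and adjusted p of their change, so this separation adds little to the selection. Over all genes tested, 26.0% were higher and 26.6% lower without overlap.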

How the data were processed

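Enamel organs of first molars were profiled by RNA-seq at P5 and P12. The authors deposited whole-number read counts per gene, not normalized, with gene names, lengths and GRCm38 coordinates. The submitters' processing notes name CASAVA and mm39. The aligner, the counting program and its use of strand are not given in the sources used here. Columns were assigned to libraries by name, and 0 columns of per-sample values were left unused. The 2 ages were compared by edgeR 4.0.16 (R 4.3.3) after filterByExpr and TMM scaling, using glmQLFit and glmQLFTest without covariates. P-values were adjusted by the Benjamini-Hochberg method over 16440 genes, with a threshold of 0.05. DESeq2 1.42.0, which the study's methods name, and limma-voom (limma 3.58.1) were alternatives, with other scalings, filters, thresholds, the replicate block and libraries left out. Permutation tests enumerated all 70 divisions of 8 libraries (scipy 1.17.1, log2 of normalized count plus 1). The edgeR, DESeq2 and limma-voom fits were also run on simulated counts. A minimum recovery set beforehand was missed by limma-voom for 2-fold changes. It was then replaced by criteria on bias, direction and false calls. No 2 libraries of an age agreed within counting noise, since chi-square was at least 5.11 per degree of freedom. Pairs with P12 replicate 4 gave 35.11 to 83.42, and the other P12 pairs 9.35 to 20.9. Pairs with P5 replicate 5 gave 18.84 to 20.44, and the other P5 pairs 5.11 to 6.35. Reads carried no molecular identifiers, so that the floor of 3 counts, 0.136 to 0.181 CPM, covers counting error only.

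Values in every library are given for called Rab genes that differed at least 2-fold and averaged 10 or more normalized counts, at most 12 in each direction, and for the 6 with the highest level per kilobase at each age. The 5 largest rises and falls of the machinery list, averaging 100 or more, are named. Values of further members were added after they were seen. The members, roles, pairs and lists were chosen with earlier results of these data known.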

Additional observations from a re-analysis of the deposited data

Results flagged for a closer look

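In 4 of 104 groups of 4 libraries, 1 library stood apart from the other 3 by Dixon's test at its 95% critical value, where chance gives about 5.2. Rab21 was 1480 normalized counts in P5 replicate 1, against 1346 to 1364 in the other P5 libraries. Rab27a was 194 in P12 replicate 3, against 150 to 157. Rab28 was 561 in P5 replicate 3, against 590 to 593. Rab4a was 242 in P5 replicate 1, against 225 to 228. All 4 genes kept their call when that library was left out.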

How the results depend on the processing

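Of the 16 Rab genes called higher, 14 kept the call in every alternative fit that tested them, and of the 16 called lower 9 did. The exceptions were Rab9 and Rab14 among the former and Rab2b, Rab4a, Rab4b, Rab5c, Rab8b, Rab39b and Rab40b among the latter. Of the 20 genes not called, 0 kept both their direction and the lack of a call in every fit. There were 18 such fits, of which 17 tested Rab20, Rab3c and Rab39b. Total count scaling gave 32 Rab genes higher and 9 lower, 86 and 20 machinery genes, 8885 and 2330 of all genes, and a summed Rab level ratio of 1.25. It turned the log2 fold changes of Rab1a (0.15), Rab2a (0.36), Rab3a (0.22), Rab5c (0.072), Rab8b (0.039), Rab12 (0.36), Rab33b (0.28) and Rab40c (0.34) positive, of which Rab5c and Rab8b were called lower under TMM. A 2-fold minimum left 3 and 10 Rab genes, 10 and 5 machinery genes, and 1865 and 1677 of all genes. Without a filter on low counts Rab2a (0.008) and Rab12 (0.0059) turned positive. With 1 library left out, the number of Rab genes higher was 14 to 16 and lower 14 to 16, of machinery genes 39 to 44 and 34 to 38, of all genes 4309 to 4938 and 4364 to 5092, and of pairs without overlap 12 to 14. Values that changed sign were those of uncalled genes, those of Rab2a (-0.041 to 0.011), Rab5a (-0.021 to 0.13), Rab12 (-0.066 to 0.039), Rab18 (-0.023 to 0.15), Rab30 (-0.099 to 0.069), Rab35 (-0.0069 to 0.082), Rab40c (-0.095 to 0.026), Rab43 (-0.14 to 0.20) and Rab44 (-0.10 to 0.40).

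Replicate numbers 1, 3 and 4 occur at both ages. Correlations of same-numbered libraries, as deviations from the mean of their age, were -0.036 to 0.045. Those of differently numbered libraries were -0.068 to 0.062. The labels do not say what a shared number means. With so few same-numbered libraries, these correlations cannot decide whether a litter or preparation was shared. With the replicate number as a block over these 6 libraries, 14 Rab genes were higher and 12 lower, 37 and 31 machinery genes, and 3867 and 3843 of all genes. Without the block the same 6 gave 14 and 14 Rab genes. In the blocked fit Rab12 (0.051), Rab30 (-0.034), Rab40c (0.020), Rab43 (-0.23) and Rab44 (-0.043) changed sign, as they did without the block (0.053, -0.025, 0.023, -0.23 and -0.014). An alternative chosen after seeing the data left out P5 replicate 5 and P12 replicate 4 together, and Rab5a (-0.056), Rab11b (-0.013), Rab18 (-0.022), Rab30 (-0.0049) and Rab43 (-0.19) changed sign.

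With 4 pools per age, genes near the filter rest on few reads, such as Rab20 and Rab39b, and at P12 also Rab3c. Overlapping gene models limit Rab24, Rab43, Rab2b and Rab4b. Changes in the mix of cells and in RNA per cell cannot be told apart.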
